A study of Mus musculus with 60 samples.

Results

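The hippocampus of wild-type (WT) mice was described alone, through its messenger RNA and through the chromatin that touches the nuclear lamina. Members were taken by the genotype in the labels. They are 9 of the 18 RNA-seq libraries of a series of 60 samples, and the 1 deposited list of 145 WT lamin B1 domains. The series was made to study lamin B1 and the nuclear envelope in a mouse model of Huntington's disease, and its mutant genotype was not compared here. The WT mice were 30 weeks old and of a mixed CBA and C57BL/6 strain, and whole hippocampal tissue was used. Each RNA library was labelled as an independent biological replicate. Chromatin was immunoprecipitated with an antibody against lamin B1 in 3 replicates, each a pool of 5 mice sequenced in 3 lanes. The domain file is a single list for the genotype, so the bounds of a domain have no replicate spread.

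The hippocampus is the part of the forebrain that lays down memories of places and events. Its principal cells are the granule neurons of the dentate gyrus and the pyramidal neurons of fields CA1, CA2 and CA3, among inhibitory neurons, astrocytes, oligodendrocytes, microglia and vessels. The lamina is a mesh of lamin proteins under the inner nuclear membrane. The chromatin that touches it forms lamina-associated domains, long stretches of AT-rich sequence with few genes that are known to hold mostly silent genes.

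The tissue label was checked against marker lists. All 10 pan-neuronal genes, and all listed markers of astrocytes, microglia, oligodendrocytes and their precursors, inhibitory neurons, dentate granule and CA1 neurons, and 5 of 6 CA2 markers, averaged 1 RPKM or more (reads per kilobase of gene, scaled for depth, so that levels can be set side by side between genes). So did 8 of 9 measured markers of striatal neurons and 7 of 8 of thalamus and neocortex, so passing this level does not by itself set the hippocampus apart. The reads on genes numbered between 12299434 and 16457022 per library, and between 12985 and 13404 genes reached 1 RPKM in a library. Pairs of libraries had a Pearson r between 0.979 and 0.990 across genes on the log2(RPKM + 0.5) scale, and a chi-square per gene between 4.23 and 17.2 showed that all pairs differed by more than counting error. Of the genes named here Snap25, Slc1a2, Glul, Hpca, Ddn, Txndc16, Acsl6 and Cadm2, among others, overlap a gene on the opposite strand, and their values are uncertain to that extent because it is not given whether counting used the strand. All 9 libraries had Y-linked transcripts, with Ddx3y between 11.6 and 14.1 RPKM, and Xist was at 0.03 RPKM or less. Some libraries stood apart in the levels of markers of neighbouring tissue. The summed level of 12 choroid plexus genes ran from 82.7 RPKM in replicate 8 to 1352 RPKM in replicate 3, and the summed level of 8 genes of thalamus and neocortex was 96.7 RPKM in replicate 6 against 65.7 RPKM in the next library. Fewer cells of a type and less RNA per cell cannot be told apart in such bulk tissue.

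Of the 24508 gene symbols in the table, 12280 (50.1%) had at least 1 RPKM in every WT library. The mean was 10 RPKM or more for 6415 genes and 100 RPKM or more for 566. Genes whose mean over the 9 libraries reached 1 RPKM are called expressed, 13149 in all. At the other end, 4238 symbols (17.3%) had no read in any of the 9 libraries. A count of 0 in a library allows up to 3 reads by counting error.

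The 25 most abundant genes of the WT hippocampus were described first. Eef1a1, the elongation factor that brings aminoacyl-tRNA to the ribosome, had the highest level of the genes placed on the genome, with a lowest library of 1339 RPKM, a median of 1394 and a highest of 1478 (mean 1397 ± 50.1, SD, n = 9; chromosome 9, 78326256 to 78336958, minus strand, build NCBIM37 throughout). It was also the steadiest of the 25 most abundant genes, with a coefficient of variation (CV, the SD over the mean) of 3.59%. Cpe, the carboxypeptidase that trims neuropeptides and prohormones, followed with a lowest library of 1187 RPKM, a median of 1343 and a highest of 1695. Cst3, the protease inhibitor cystatin C, lay between 1190 and 1487 RPKM, and Fth1, the iron-storing ferritin heavy chain, between 1152 and 1440 RPKM. Cpe and Fth1 were highest in replicate 1, and Cst3 in replicate 6.

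Several of the rest of the first 25 act at synapses or in calcium signalling. Camk2a, the calcium and calmodulin-dependent kinase of excitatory synapses, had a mean of 1057 ± 71.8 RPKM, and Snap25, a membrane fusion protein of the nerve terminal, had 1055 ± 63.2 RPKM (SD, n = 9 each). The calmodulin genes Calm2, at 1044 RPKM, and Calm3, at 761 RPKM, were among them. So were the sodium pump subunit gene Atp1b1 at 724 RPKM and the postsynaptic protein gene Ddn at 729 RPKM. Hpca, a calcium sensor known for its high level in hippocampal pyramidal cells, had the widest spread of the 25, from 549.9 RPKM in replicate 2 to 949 RPKM in replicate 1 (CV 17.3%). Genes known from astrocytes were Apoe, a lipid carrier, at 913 RPKM, and Glul, which makes glutamine from glutamate, at 710 RPKM. Genes of most cells were also there: the chaperones Ppia at 915 RPKM and Hspa8 at 887 RPKM, the glycolytic enzymes Aldoa at 859 RPKM and Gapdh at 833 RPKM, the ribosomal protein gene Rplp1 at 773 RPKM, the actin-binding Tmsb4x at 719 RPKM and the selenoprotein gene Selenow at 718 RPKM.

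**Figure D1:**
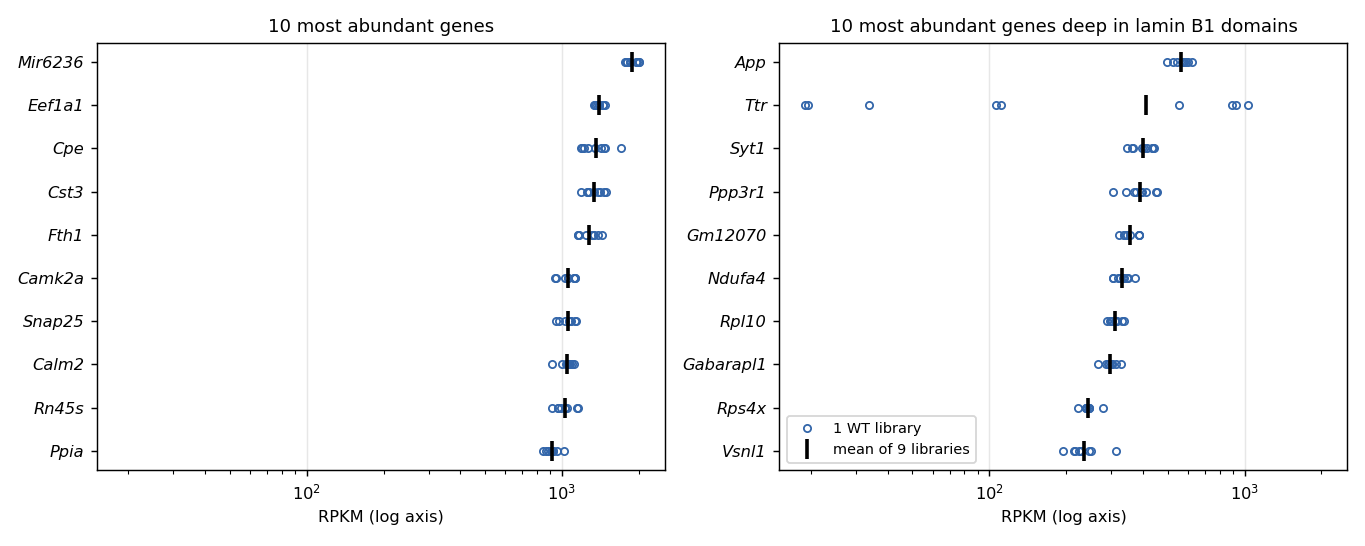
RPKM (log axis) of the 10 most abundant genes (left) and of the 10 most abundant genes with their start at least 500 kb inside a lamin B1 domain (right); each circle is 1 of the 9 WT libraries and each bar the mean. Most genes have circles close together, while Ttr, in the right panel, runs from 19.0 to 1035 RPKM.

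Length mattered for part of this order. Mir6236, an annotated microRNA hairpin, headed the list at 1882 RPKM on a mean of 3277 reads per library, and by reads it ranked 868th. Rn45s, the ribosomal RNA precursor, had 1027 RPKM, and Lars2, a mitochondrial leucyl-tRNA synthetase gene, had 802 RPKM. By reads they ranked 2 and 4, so their high place did not rest on length. When genes were ranked by reads and not per length, 13 of the 25 were the same, and Slc1a2, the main glutamate transporter of astrocytes, came first with a mean of 86820 reads at 509 RPKM. Together the first 25 held from 4.82% (replicate 8) to 5.38% (replicate 1) of the reads. Of these 25 genes, 23 were matched to the annotation, and 0 had their start in a WT lamin B1 domain, where 12.8% of all matched expressed genes did. Among the 100 most abundant matched genes, 7 did, namely App, Ttr, Syt1, Ppp3r1, Serinc1, the pseudogene Gm12070 and Ndufa4. Serinc1 was named after its values were seen.

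The nuclear lamina's own genes were expressed at modest and even levels. All 14 listed genes of the lamina and envelope had at least 1 RPKM in every library, with a median of 10.9 RPKM, and their summed level differed little between libraries, from 149 to 162 RPKM (CV 2.94%). Lmna, the gene of the A-type lamins, lay between 7.74 and 10.3 RPKM with a median of 9.45, and Lmnb2, a B-type lamin gene, between 4.18 and 6.05 RPKM with a median of 5.32. Lmnb1, the gene of the protein whose chromatin was sequenced, lay between 2.21 and 3.04 RPKM with a median of 2.63. Its highest library was below the lowest library of the other lamin genes. The tethering proteins Lbr (mean 4.70 RPKM), Tmpo (5.30 RPKM), Lemd3 (10.9 RPKM), Emd (16.8 RPKM) and Banf1 (24.4 RPKM) and the membrane proteins Sun1 (20.3 RPKM) and Sun2 (10.8 RPKM), which link the lamina to the cytoskeleton, had CVs of 9.26% or less. Only Emd of the 14 had its start in a WT domain, on the X chromosome.

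Between WT libraries most genes differed little. Over the 13149 expressed genes the median CV was 9.59%, of which counting reads alone would give 4.92%, and with that part removed the median was 7.44%. The CV was under 10% for 6952 genes (52.9%) and at least 50% for 225 (1.71%). Of those 225 genes, 156 rested on a mean of under 50 reads per library. Because of this, the genes ranked by their SD on the log2 scale were of 2 kinds.

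**Figure D2:**
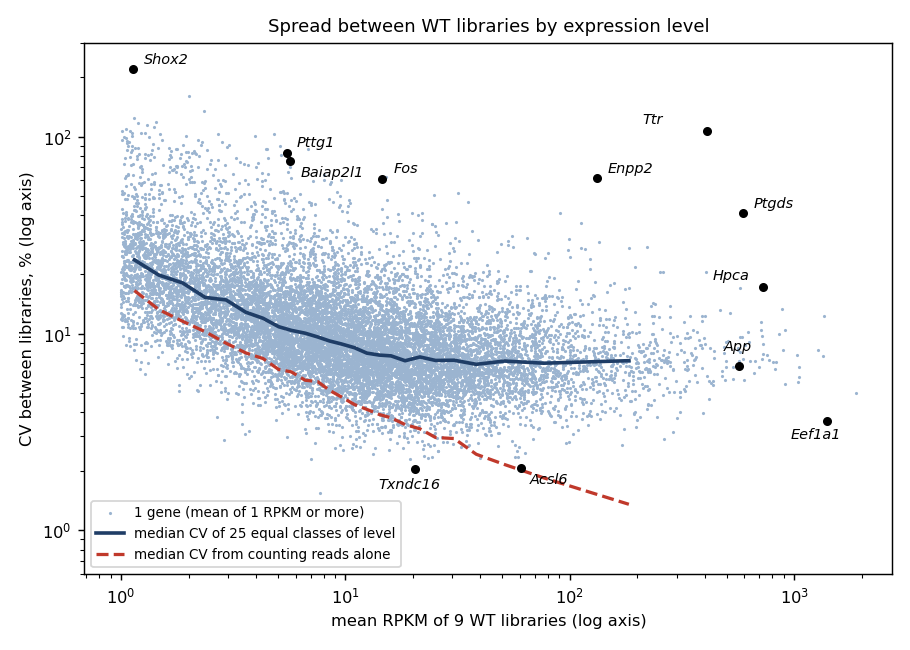
CV between the 9 WT libraries in percent against mean RPKM (both log axes) for the 13149 expressed genes, with the median in 25 classes of level (solid) and the part that counting reads would give (dashed). The solid line flattens at high levels while the dashed line goes on falling, and Ttr, Enpp2, Ptgds and Hpca lie far above genes of like level.

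Of the 20 most variable genes, 14 had a mean under 50 reads. Among these were 9 microRNA genes (Mir132, Mir7664, Mir6972, Mir3072, Mir7115, Mir6999, Mir3091, Mir6904 and Mir199a-1) and the small nucleolar RNA gene Snord37. Snord37 had between 0 and 9 reads per library, and the SD of 1.70 on the log2 scale stood against 0.71 from counting alone. Gm5741, AF357426, AA465934 and Serpina3m were the other 4. Serpina3m, a serine protease inhibitor gene, lay between 0.04 RPKM in replicate 2 and 5.03 RPKM in replicate 5, on 1 to 132 reads. AA465934 lay between 0.65 and 12.9 RPKM.

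The remaining 6 of the 20 were Ttr, Pttg1, Baiap2l1, Folr1, 1500015O10Rik and Gm3893. Ttr, which carries thyroid hormone and retinol and is the hallmark transcript of the choroid plexus, had the highest SD of all genes on the log2(RPKM + 0.5) scale. By CV, where Ttr had 106.7%, others were higher, among them Shox2 (219.9%) and Gm5741 (160.4%). Replicates 1, 3, 5 and 6 had 925, 1035, 894 and 556 RPKM, replicates 2 and 4 had 106 and 112 RPKM, and replicates 7, 8 and 9 had 19.5, 19.0 and 33.9 RPKM. The SD was 2.42 on the log2 scale, against 0.02 from counting. An opposite-strand gene overlaps Ttr in the annotation. The choroid plexus list moved with it: the same 4 libraries, replicates 1, 3, 5 and 6, were highest for all 12 of its measured members, and replicates 7, 8 and 9 were lowest for 9 of the 12. Folr1, a folate receptor, ran from 0.14 to 6.90 RPKM. Enpp2, which makes lysophosphatidic acid, ran from 54.8 to 261 RPKM and Kl, the klotho gene, from 4.82 to 17.1 RPKM. No listed member was at 0 in all libraries, and the lowest, Kcne2, was at 0 in replicate 8. Ependymal markers, from the lining of the ventricle, had a summed level between 5.54 RPKM in replicate 7 and 27.0 RPKM in replicate 5.

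Pttg1, the securin of chromosome segregation, was lowest in replicates 1, 3 and 5, the libraries with the highest Ttr. Replicate 6, also high in Ttr, had the highest Pttg1, and a link to Ttr was not tested. Pttg1 had 0.18, 0.15 and 0.29 RPKM in replicates 1, 3 and 5, on as few as 3 reads. It had between 5.44 and 10.95 RPKM in the other 6 libraries, with no library in between. Baiap2l1, an actin-membrane linker gene that overlaps a gene on the opposite strand, had 0.31 RPKM in replicate 2 and 0.12 RPKM in replicate 9, while the other 7 libraries lay between 4.55 and 13.7 RPKM. Gm3893, a predicted gene, had 0.62 RPKM in replicate 1 and 1.40 RPKM in replicate 9, against 6.76 to 15.9 RPKM in the others. The sets of low libraries thus differed between these 3 genes.

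A minimum of 50 reads, added after the data were seen, showed which well-measured genes varied. The choroid plexus members Sostdc1, Clic6, Aqp1, F5 and Enpp2 joined Ttr and Folr1 among the first 20. Shox2, a homeobox gene, had 7.70 RPKM in replicate 6 and at most 1.36 RPKM in the others. Tcf7l2, a thalamic transcription factor on the thalamus and neocortex list, had 9.35 RPKM in replicate 6 against a median of 1.71, and 6 of the 8 members of that list were highest in that library. Fos, the immediate-early gene of neuronal firing, ran from 2.70 RPKM in replicate 4 to 30.8 RPKM in replicate 5. Over the 15 activity-regulated genes the summed level ran from 208 RPKM in replicate 4 to 448 RPKM in replicate 5, with 11 of the 15 lowest in replicate 4. Microglia genes summed to between 181 and 307 RPKM, also with replicate 4 lowest and replicate 5 highest, and 9 of 10 were highest in replicate 5. Ptgds, the prostaglandin D synthase, was chosen after its values were seen as the abundant gene with a wide spread, from 325 to 1124 RPKM (mean 589 ± 241, SD, n = 9).

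**Figure D3:**
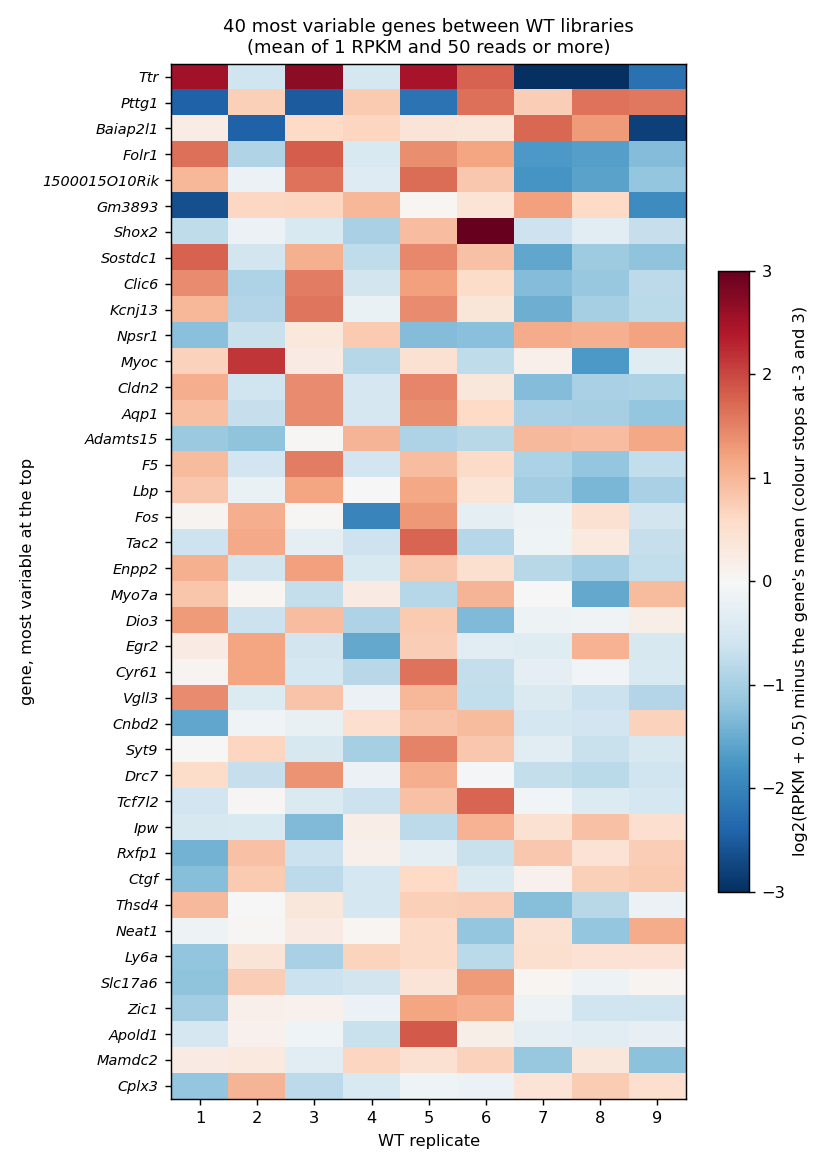
Colour gives log2(RPKM + 0.5) minus the gene's mean for the 40 most variable genes with at least 1 RPKM and 50 reads on average, by WT replicate (columns). The choroid plexus genes share one pattern, red in replicates 1, 3, 5 and 6, while Pttg1 is low in replicates 1, 3 and 5 and Shox2 is high in replicate 6.

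The markers of the hippocampal fields varied in between. Dentate granule genes summed to between 112 RPKM in replicate 2 and 161 RPKM in replicate 6, and their median CV was 18.4%. C1ql2, a secreted synapse organiser of granule cells, had a lowest library of 12.7 RPKM, a median of 25.4 and a highest of 36.1. CA1 genes summed to between 234 and 318 RPKM (median CV 18.0%), CA2 genes to between 177 and 262 RPKM (24.9%) and CA3 genes to between 69.3 and 122 RPKM (28.5%). Pan-neuronal genes had a median CV of 8.36% and oligodendrocyte genes of 9.76%, close to the 9.59% of all genes. The 16 usual reference genes had a median CV of 8.62%. Among these, Rplp0, a ribosomal stalk protein gene, had the lowest spread at 4.81%, and B2m, the light chain of class I antigens, the highest at 24.3%, from 57.0 RPKM in replicate 6 to 117 RPKM in replicate 5.

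The 20 steadiest genes, of those averaging 10 RPKM or more, had SDs of 0.04 or less on the log2 scale. Txndc16 had the smallest SD, 0.03 on the log2 scale, with a lowest library of 19.8 RPKM, a median of 20.5 and a highest of 21.0. Acsl6, which activates fatty acids, lay between 58.4 and 62.2 RPKM, Osbpl2, a lipid transfer protein gene, between 18.4 and 19.97 RPKM, and Picalm, a clathrin adaptor, between 38.5 and 41.8 RPKM. The splicing factors Puf60 (55.6 to 59.3 RPKM) and U2af2 (56.1 to 60.8 RPKM), the initiation factor gene Eif2s2 (22.5 to 24.0 RPKM) and the transcription factor gene Gtf2i (56.5 to 60.9 RPKM) were among them. The others were Poldip3, Ubap2l, Trappc8, Glyr1, Rbbp9, Arhgap23, Mapkapk2, Lman1, Cby1, Trap1, Ctps and Mnt. None of the 16 reference genes was in this set. It holds only 20 of the 6415 genes averaging 10 RPKM or more, so this absence says little about the reference genes. For 14 of the 20 genes the CV was no larger than counting reads would give, as it was for 223 genes in all, so the order among the steadiest genes was not resolved at this depth. Scaled to each library's own total of reads in place of the authors' size factors, 1 of the 20 was kept, and leaving out 1 library kept between 6 and 11.

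The WT lamin B1 domains were then placed on the genome. The 145 domains covered 1062 Mb, 41.5% of the 2559 Mb of sequenced bases, with lengths from 0.888 to 67.6 Mb and a median of 4.77 Mb. The 31 domains of 10 Mb or longer held 56.0% of the domain length. Sequence in domains had a GC content of 38.6%, against 44.0% outside, and held 8.47 annotated gene starts per Mb, against 18.9 outside. For protein-coding genes these were 4.22 and 11.9 per Mb. The X chromosome was covered most, at 71.4%, and chromosome 19 least, at 15.9%. The longest domain lay on the X chromosome from 52540001 to 120139000. It held 396 matched genes, 178 of them expressed, with the ribosomal protein gene Rpl10 the highest at 311 RPKM. The next was on chromosome 14 from 80290001 to 118178000 (37.9 Mb). It had the highest score of the list, 131 in the authors' units, but held only 50 matched genes, 31 of them expressed, led by Kctd12, an auxiliary subunit gene of the GABA-B receptor, at 43.8 RPKM. The other domains among the 5 longest or the 5 with the highest score were led by Psma6 (60.9 RPKM, chromosome 12), Ndufa4 (332 RPKM, chromosome 6), Qdpr (136 RPKM, chromosome 5), Pam (57.0 RPKM, chromosome 1) and App (566 RPKM, chromosome 16). Score and length went together across the list (Spearman rho 0.92, 145 domains).

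Genes in WT domains were expressed less often and at lower levels than genes outside. Of the 22241 genes matched to the annotation, 4370 (19.6%) had their start in a domain. The share with at least 1 RPKM was 37.3 ± 0.369% in domains and 62.5 ± 0.525% outside (SD, n = 9 libraries). The difference was -25.1 ± 0.193 percentage points, and all 9 libraries had it in this direction (two-sided exact sign-flip permutation test, p = 0.00391, the smallest that 9 libraries allow). The median log2(RPKM + 0.5) was -0.83 ± 0.02 in domains, a value near that of no reads, and 2.01 ± 0.04 outside, a difference of -2.84 ± 0.04 (9 of 9 libraries, exact p = 0.00391). The libraries share their genes and the 1 domain list, so this spread is that of expression between libraries only, and does not cover how the domains were drawn. The difference in level was mostly one of genes with and without expression. When only genes averaging 0.5 RPKM or more were kept it was -0.40, and the median level of expressed genes was 7.80 RPKM in domains and 10.2 RPKM outside. Genes in domains took 11.01 ± 0.149% of the reads on matched genes (SD, n = 9).

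The share of genes that lay in domains was highest for silent genes and lowest for the most abundant. It was 50.5% of the 3313 matched genes with no read in any library (32.9% of 2056 without olfactory, vomeronasal and taste receptor genes), 20.7% of those above 0 and up to 0.1 RPKM, 14.5% from there to 1 RPKM, 14.6% from 1 to 10 RPKM, 11.1% from 10 to 100 RPKM and 8.59% of the 559 genes at 100 RPKM or more. The share with at least 1 RPKM was lower in domains on 19 of 21 chromosomes, the Y with 1 gene in a domain among them. It was not on chromosome 15 (68.4% of 57 genes in domains against 64.8% outside) or on the X chromosome (45.0% of 555 genes in domains against 43.3% outside). These counts were not tested per chromosome. On chromosome 19 it was 8.20% of 61 genes in domains, 40 of which were olfactory or other sensory receptor genes, against 67.1% outside. On chromosome 2 it was 23.4% of 458 genes in domains, 289 of which were such receptors, against 61.1% outside. Leaving these receptors out of the domains brought the chromosome 2 share there to 62.7%. On chromosome 12 the shares were close, 65.1% in domains and 66.2% outside.

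Sensory receptor genes, which are known to be silent outside sense organs, filled many domains. Olfactory receptor genes had 878 of 1107 in domains (79.3%), vomeronasal receptor genes 188 of 332 (56.6%) and taste receptor genes 34 of 38 (89.5%). Together they were 1100 of the 4370 genes in domains (25.2%), against 2.11% of the genes outside. Few were expressed, among them Olfr613 at 8.28 RPKM in a domain of chromosome 7 and the vomeronasal receptor gene Vmn1r58 at 10.1 RPKM outside. Without these receptors, left out in a comparison added after the data were seen, the share with at least 1 RPKM was 49.8 ± 0.502% of 3270 genes in domains and 63.8 ± 0.535% of 17494 outside, and the difference shrank to -14.0 points (9 of 9 libraries, exact p = 0.00391). Killer lectin-like receptors, of natural killer cells, had 23 of 29 genes in a single domain and 0 of these at 1 RPKM. Of all matched genes 19.6% lay in domains, and 37.3% of the genes in domains had at least 1 RPKM. As the 23 lie in 1 domain, they are not separate placements. The developmental Hox genes, although silent in these libraries (0 of 42 at 1 RPKM), had 0 of 42 in domains. They lie in clusters, so the 42 are not separate placements either.

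Many long genes of the synapse lay in domains and were expressed there. Of the 37 matched genes on the list of synaptic adhesion and axon guidance, 28 (75.7%) had their start in a domain, where 19.6% of all matched genes did. The 28 genes were spread over 18 domains, and 27 of the 28 were expressed. All but 1 of the 28 lay at least 500 kb from a border, and the median gene length of the 28 was 611 kb. Of all protein-coding genes of 500 kb or longer, 47.2% lay in domains, and 88.0% of those in domains were expressed. Gene length and function were not told apart here. Cadm2, a synaptic cell adhesion molecule gene, had a lowest library of 36.5 RPKM, a median of 45.4 and a highest of 58.9. Lrrtm1, a postsynaptic adhesion protein gene, had a mean of 37.2 RPKM, Ctnna2, the neuronal alpha-catenin, had 32.4 RPKM and Slitrk3, an organiser of inhibitory synapses, had 26.4 RPKM. Il1rapl2, the 1 member under the threshold, had 0.63 RPKM. Outside domains the highest was Cntn1, a contactin, at 98.3 RPKM. Cadherins had 11 of 23 genes in domains, all 11 expressed, against 5 of the 12 outside, and non-clustered protocadherins had 8 of 12.

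GABA-A receptor genes lay in domains more often than ionotropic glutamate receptor genes (87.5% and 35.3%), a difference that was not tested. Of 16 GABA-A receptor subunit genes, the channels of fast inhibition, 14 (87.5%) lay in 4 domains, and 11 of these were expressed. On chromosome 7 Gabra5 had 72.5 RPKM and Gabrg3 2.53 RPKM. On chromosome 11 Gabrb2 had 45.9 RPKM and the cerebellar subunit gene Gabra6 0.22 RPKM on average, of which replicate 7 had 1.76 RPKM and no other library more than 0.09 RPKM. Chromosome 5 held Gabra2 (47.3 RPKM), Gabra4 (34.7 RPKM), Gabrb1 (16.8 RPKM) and Gabrg1 (7.43 RPKM). On the X chromosome Gabra3 had 23.2 RPKM, while its neighbours Gabre and Gabrq had 0.12 RPKM each. Gabrd, of extrasynaptic receptors, was the expressed subunit gene outside, at 15.7 RPKM. Of 17 ionotropic glutamate receptor genes 6 lay in domains, led by the AMPA receptor subunit gene Gria2 at 109 RPKM, and 11 outside, led by Gria1 at 184 RPKM and with the obligate NMDA receptor subunit gene Grin1 at 73.8 RPKM. Of the 9 dentate granule genes 5 were in domains, among them Calb1, a calcium buffer, at 34.8 RPKM. Of the 10 pan-neuronal genes 4 were, as were 3 of 8 CA1 and 4 of 7 CA3 genes. Other neuronal lists had fewer, with 2 of 12 inhibitory neuron and 0 of 6 CA2 genes. Among non-neuronal lists, 2 of 10 astrocyte, 3 of 12 choroid plexus and 1 of 10 oligodendrocyte genes were in domains. So were 0 of the 10 microglia, 10 endothelial and 6 oligodendrocyte precursor genes. The lists are small, and differences between them were not tested. These counts, which include genes under 1 RPKM, stand beside 19.6% of all matched genes and 12.8% of the expressed ones.

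Cytosolic ribosomal proteins had 7 of 82 matched genes in domains (8.54%), proteasome subunits 2 of 40 and complex I subunits 5 of 46 (10.9%). The share was 19.6% for all matched genes and 12.8% for the expressed ones. The few that lay deep in a domain were nonetheless abundant. Rpl10 had 311 RPKM, with libraries between 288 and 337, and Rps4x had 244 RPKM, both in the long X chromosome domain. Rpl7 had 224 RPKM on chromosome 1, Rpl24 had 183 RPKM on chromosome 16 and Ndufa4 had 332 RPKM on chromosome 6. Near-identical pseudogene copies of such genes are common, and how the authors' counting shared reads among copies is not known.

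The most abundant genes with their start at least 500 kb inside a domain included several with known roles in neurons. App, the amyloid precursor protein gene, led with a lowest library of 496 RPKM, a median of 575 and a highest of 620.5, and lay 4588 kb inside the nearest border (chromosome 16, 84954685 to 85173952, minus strand). Syt1, the calcium sensor of vesicle release, lay between 346 and 440 RPKM with a median of 403 and was 6178 kb inside (chromosome 10, 107934706 to 108448038, minus strand). Ppp3r1, the regulatory subunit gene of calcineurin, had 389 RPKM. Vsnl1, a neuronal calcium sensor gene, had 235 RPKM, Syn1, a synaptic vesicle protein gene, had 209 RPKM and Map2, the microtubule protein of dendrites, had 197 RPKM. Genes of wider use were Gabarapl1 of autophagy at 298 RPKM, the phosphatase scaffold gene Ppp2r1a at 234 RPKM, the glycolytic Pgk1 at 232 RPKM, Nckap1 of actin assembly at 198 RPKM, Maged1 at 187 RPKM and Zwint at 182 RPKM. Ttr, at 411 RPKM on average, is among them by its mean, but lay between 19.0 and 33.9 RPKM in replicates 7, 8 and 9. Gm12070, at 355 RPKM, is annotated as a pseudogene, so its reads are uncertain where they match the gene it copies.

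Promoters differed between these classes, and a few are printed to show the contrast. They are the 250 bases before the annotated gene start of build NCBIM37, 5′ to 3′ on the gene's strand, with each CG pair in capitals. Eef1a1 and Snap25 are abundant genes outside domains, App and Syt1 abundant genes deep inside, and Olfr118 is an olfactory receptor gene with no read in any library, 587 kb inside a domain.
Eef1a1 (chr9:78336959-78337208, minus strand): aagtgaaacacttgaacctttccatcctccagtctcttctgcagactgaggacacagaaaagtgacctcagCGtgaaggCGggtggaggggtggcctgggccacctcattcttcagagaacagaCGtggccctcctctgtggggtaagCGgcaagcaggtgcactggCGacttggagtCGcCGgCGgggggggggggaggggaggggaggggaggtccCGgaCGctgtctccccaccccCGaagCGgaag
Snap25 (chr2:136538939-136539188, plus strand): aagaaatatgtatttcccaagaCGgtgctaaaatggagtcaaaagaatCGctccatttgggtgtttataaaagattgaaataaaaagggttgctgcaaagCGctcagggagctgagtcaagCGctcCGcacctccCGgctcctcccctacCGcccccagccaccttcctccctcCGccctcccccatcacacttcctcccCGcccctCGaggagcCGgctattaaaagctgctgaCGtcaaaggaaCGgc
App (chr16:85173953-85174202, minus strand): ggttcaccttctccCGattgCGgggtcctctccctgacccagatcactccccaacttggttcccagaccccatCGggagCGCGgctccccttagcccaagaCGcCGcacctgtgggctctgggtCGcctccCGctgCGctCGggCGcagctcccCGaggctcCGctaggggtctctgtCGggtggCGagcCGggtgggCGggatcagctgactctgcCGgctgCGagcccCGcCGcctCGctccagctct
Syt1 (chr10:108448039-108448288, minus strand): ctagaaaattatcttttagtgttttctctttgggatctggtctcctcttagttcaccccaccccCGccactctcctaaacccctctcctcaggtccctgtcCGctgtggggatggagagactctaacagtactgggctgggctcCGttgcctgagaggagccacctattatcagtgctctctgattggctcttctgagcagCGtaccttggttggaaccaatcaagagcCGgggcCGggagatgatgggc
Olfr118 (chr17:37808720-37808969, plus strand): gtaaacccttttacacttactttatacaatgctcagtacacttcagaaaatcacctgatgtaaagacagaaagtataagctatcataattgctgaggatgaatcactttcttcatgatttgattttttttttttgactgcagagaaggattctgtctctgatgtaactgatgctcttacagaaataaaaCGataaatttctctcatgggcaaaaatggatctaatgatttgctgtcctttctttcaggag

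The App promoter had 23 CG pairs in its 250 bases, Snap25 had 13, Eef1a1 12, Syt1 6 and Olfr118 1. The ratio of observed to expected CG pairs was 0.747 for App, 0.326 for Syt1 and 0.142 for Olfr118, so these abundant genes inside domains differed in the CG content of their promoters. Over all genes, this ratio had a median of 0.635 for the 1638 expressed genes in domains and 0.712 for the 11187 such genes outside. It was 0.142 for the 2732 genes under 1 RPKM in domains and 0.267 for the 6684 outside. The letters TATAAA, searched on both strands, were in 8.49% of the promoters of expressed genes in domains and in 30.8% of the promoters of the other genes there. The shares outside were 6.19% and 14.7%, and 11.9% over all matched genes. The letters and the base composition are not independent: the median GC content of the promoters was 56% for the expressed and 39.2% for the other genes in domains.

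Fewer genes were expressed just inside a border than just outside, and the share was low up to 1 Mb inside and higher further in. All domain bounds lay on a grid of 37 kb or at a chromosome end. Differences between neighbouring classes of distance were not tested. Just outside, within 100 kb of a border, 62.3% of 316 genes were expressed, like the 57.1% to 65.2% in the other classes of distance outside. Just inside, within 100 kb, it was 24.4%, and from 100 to 200 kb inside 14.0% of 157 genes, 67 of them sensory receptor genes. The share stayed low at 17.6% of 427 genes from 200 to 500 kb inside and 18.9% of 646 genes from 0.5 to 1 Mb. Beyond 1 Mb it was higher, at 33.4% from 1 to 2 Mb and 52.0% of 2089 genes more than 2 Mb inside. The higher share of genes at least 500 kb inside, given next, thus rested on those beyond 1 Mb. Genes at least 500 kb inside had a share of 41.5 ± 0.417% and those nearer to a border 18.5 ± 0.318% (SD, n = 9 libraries). The difference was 22.9 ± 0.408 points, in this direction in 9 of 9 libraries (two-sided exact sign-flip permutation test, p = 0.00391, the smallest possible). Without sensory receptor genes it was 20.4 points. The distance a gene can have from a border depends on the length of its domain, and in comparisons added after the data were seen the difference was 17.8 points within domains of 10 Mb or longer and 14.7 points within shorter ones. Within narrower classes of length the direction varied. In domains under 2 Mb the share of expressed genes was 10.8% of 222 genes nearer than 500 kb to a border and 4.55% of 88 genes further in, the opposite order. In domains of 2 to 5 Mb it was 18.6% nearer than 500 kb, 22.7% from 0.5 to 1 Mb and 23.1% from 1 to 2 Mb. In domains of 5 to 10 Mb it was 19.1% nearer than 500 kb and 47.5% from 2 to 5 Mb inside.

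**Figure D4:**
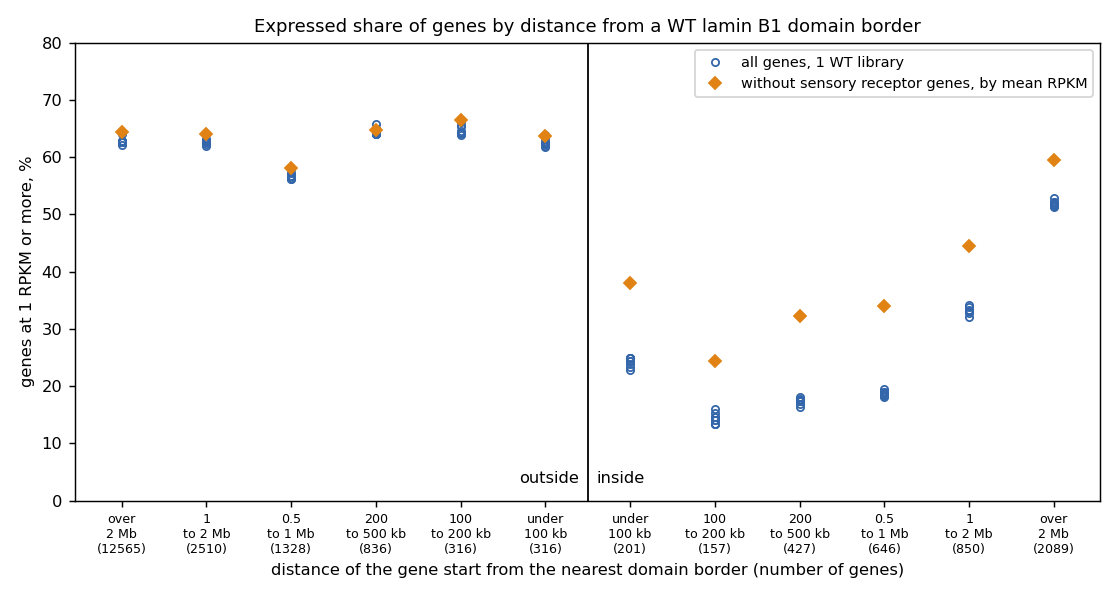
Share of genes with at least 1 RPKM, in percent, by distance of the gene start from the nearest WT domain border, outside (left of the line) and inside (right); circles are the 9 WT libraries, diamonds leave out sensory receptor genes and use the mean level, and the number of genes is under each class. The share drops from 62.3% just outside to 24.4% just inside and is 52.0% more than 2 Mb inside.

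Short domains held the fewest expressed genes. In the 23 domains under 2 Mb, 9.03% of 310 genes were expressed, and 155 of these genes were sensory receptors. The share was 22.1% in domains of 2 to 5 Mb, 35.3% from 5 to 10 Mb, 46.6% from 10 to 20 Mb and 51.4% in the 8 domains of 20 Mb or longer. Without sensory receptors these were 18.1%, 37.2%, 47.7%, 60.1% and 53.7%. Shorter domains also had more genes, 9.30 per Mb in those under 2 Mb and 3.50 per Mb in the longest class. Across the 143 domains with a matched gene, the share of expressed genes had a Spearman rho of 0.32 with length and -0.49 with gene density. Single domains ranged widely. Of the 93 domains with at least 10 matched genes, 45 had at least 50% of them at 1 RPKM or more and 4 had none. The domain on chromosome 13 from 74777001 to 91057000, named after its values were seen, had the highest share, 89.7% of 39 genes, led by the cytochrome oxidase subunit gene Cox7c at 129 RPKM.

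**Figure D5:**
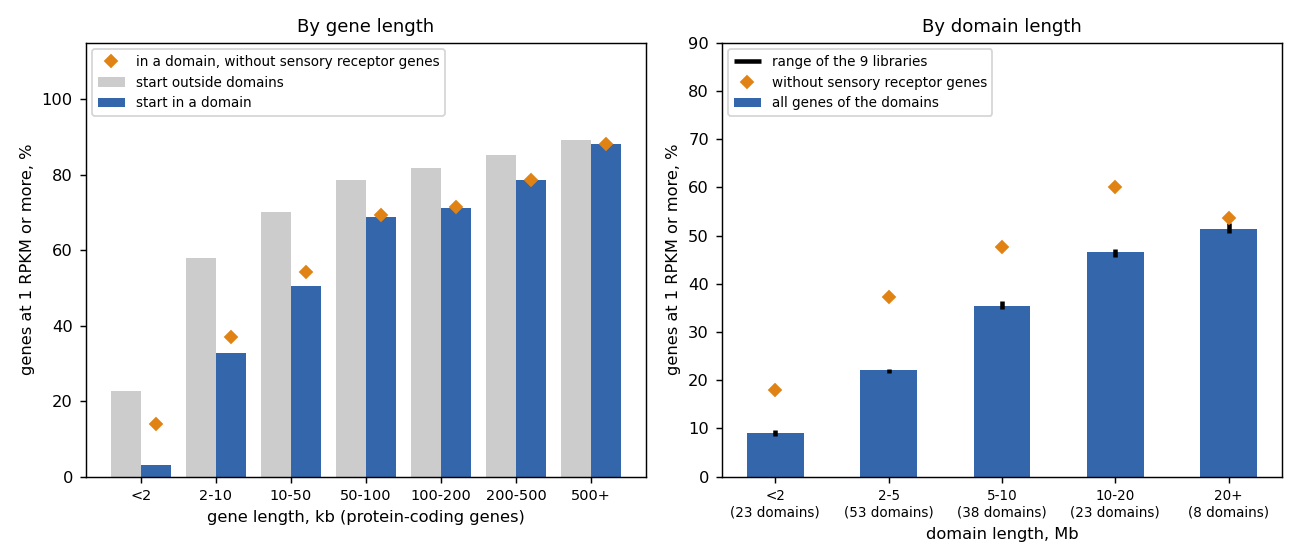
Share of expressed genes, in percent: left, protein-coding genes by gene length outside domains (grey) and in domains (blue); right, all genes in domains by domain length, with the range of the 9 libraries as a black line. Diamonds leave out sensory receptor genes. In and outside domains the share is 2.97% and 22.7% for genes under 2 kb but 88.0% and 89.3% for genes of 500 kb or longer.

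The gap between inside and outside was widest for genes of 2 to 10 kb (32.7% against 57.9%) and smallest for the longest genes. Of protein-coding genes under 2 kb, 51.1% lay in domains, 908 of the 1146 there being sensory receptors, and 2.97% of those in domains were expressed against 22.7% outside. From 10 to 50 kb the shares were 50.5% and 70.1%, and from 100 to 200 kb 71.3% and 81.9%. Of genes of 500 kb or longer 47.2% lay in domains, and here 88.0% of 92 genes in domains and 89.3% of 103 genes outside were expressed. These differences between length classes were not tested.

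Genes in domains had a slightly higher spread between WT libraries, a difference that was not tested. Their median CV was 10.6% against 9.32% outside among expressed genes. At equal levels the gap was absent at 1 to 2 RPKM (19.99% and 20.2%) and present at 20 to 50 RPKM, with 8.26% for 252 genes in domains and 7.18% for 2054 outside, where counting reads would give 2.66% and 2.89%. Of the 40 most variable well-measured genes 39 were matched, and 8 of these lay in domains, among them Ttr, Sostdc1, Enpp2 and Shox2. Of the 20 steadiest genes 2 did, Picalm and Trappc8. All matched expressed genes had 12.8% in domains, and no test was made of these small counts.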

How the data were processed

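RNA from 9 WT hippocampal libraries and lamin B1 chromatin from WT hippocampus were analysed. Per the submitters' processing notes, the tools named were TopHat, Bowtie and DESeq2, and the build mm9 (NCBIM37); versions, the counting method and its use of strand are not given in the sources used here. The authors deposited RPKM values per gene, a mean normalized count per gene (used here as a signal value to scale reads), and 1 list of WT domains with a score each. Whole reads were recovered from the deposited RPKM values and the mean normalized count: between 99.7391% and 99.8049% of values under 200 reads came out whole within 0.05 of a read, and reads on genes ranged from 12299434 to 16457022 per library. The columns of the other genotype entered only the mean that scales reads.

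Of 24508 symbols, 22241 were matched to annotated genes, 20512 by name and 1729 by synonym. A gene was in a domain if its start was. The counting part of a CV was computed from the recovered reads. Named genes were the 25 most abundant, the 20 most variable (SD of log2(RPKM + 0.5), mean at least 1 RPKM), the 20 least variable (mean at least 10 RPKM), the 20 most abundant at least 500 kb inside a domain, the leading genes of the longest and highest-scoring domains, and the listed markers and families; exceptions are said to be chosen after their values were seen. Members and lists were chosen with earlier results of these data known. In and outside values were compared per library, and the 9 differences tested with a two-sided exact sign-flip permutation test (512 flips). No count model was fitted, since no groups were compared. The scripts were tested on simulated data of 13149 genes. Among those with a mean normalized count of at least 50, CVs made as 7%, 30% and 80% came out at medians of 6.53%, 29.8% and 72.8% once counting was removed. Genes with lower counts did not enter these medians. Python 3.11.15, numpy 2.4.6, pandas 2.3.3, scipy 1.17.1 and matplotlib 3.10.9 were used. Promoter sequences were read from the NCBIM37 genome. A few genes and 1 promoter are not reported here.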

Additional observations from a re-analysis of the deposited data

Results flagged for a closer look

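Each result here had 1 WT library far from the other 8, judged by the gap to the nearest library over the whole range of the 9. Of 165 sets of 9 values examined, 18 were picked out. For independent sets not chosen on their values, the rule would pick about 1 in 20, or 8.25. Here the most and least variable genes were chosen by their spread in these same libraries. Some genes, such as Tcf7l2, also belong to a summed list. For these reasons 18 against 8.25 cannot be read as an excess. The genes the text names from the marker lists and families were added to the sets after seeing the data. Replicate 1 was highest for Hspa8 at 1182 RPKM, with the next library at 938 RPKM, for Tmsb4x at 883 RPKM (next 755 RPKM), for Selenow at 839.7 RPKM (next 744 RPKM) and for Cox7c at 153 RPKM (next 136 RPKM). Replicate 2 was highest for Rps4x at 280.2 RPKM (next 247 RPKM), for Vsnl1 at 313 RPKM (next 249.7 RPKM) and for Pam at 68.0 RPKM (next 59.2 RPKM). Replicate 6 was highest for Shox2 at 7.70 RPKM (next 1.36 RPKM), Tcf7l2 at 9.35 RPKM (next 4.87 RPKM), Gabra4 at 48.0 RPKM (next 37.1 RPKM) and Olfr613 at 11.6 RPKM (next 8.91 RPKM). Gabra6 had 1.76 RPKM in replicate 7, on 15 reads, and 0.09 RPKM in the next library. Gm5741 had 10.03 RPKM in replicate 5, on 31 reads, and 3.86 RPKM in the next library. Lman1, one of the steadiest genes, had 12.3 RPKM in replicate 3 and 11.8 RPKM in the next, with a CV over the 9 libraries of 2.64%, where counting reads alone gives 4.07%. Among summed levels of marker lists, microglia genes reached 307 RPKM in replicate 5 (next 231 RPKM). The same sums were highest in replicate 6 for CA2 genes at 262 RPKM (next 216 RPKM), for the thalamus and neocortex list at 96.7 RPKM (next 65.7 RPKM) and for red blood cell genes at 2.52 RPKM (next 1.26 RPKM), where Alas2 alone had a mean of at least 1 RPKM.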

How the results depend on the processing

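Of 118 recomputed values, 96 kept their direction and, where tested, their side of the threshold, or moved by less than the limit set for a count or a value, and 22 moved further. The size of the tested differences did change. Genes in domains stayed lower, and deep genes higher than those near borders, in all alternatives tried. The level difference ran from -4.49 to -0.40 over 19 alternatives, the share from -27.0 to -14.0 points over 17 and the deep difference from 14.7 to 27.9 points over 21. The exact sign-flip p was always the smallest possible, 0.00391 with 9 libraries and 0.00781 with 8. As the libraries share their genes and the domain list, these p do not measure how firm the differences are to the domain bounds. Of the 25 most abundant genes 13 were kept when ranked by reads. Of the 20 most variable genes 12 were kept with a pseudocount of 0.1, 6 when ranked by CV, 5 by CV with counting error removed, 7 with a minimum of 5 RPKM, 6 with at least 50 reads and 4 when choroid plexus genes were also left out, the last 2 chosen after seeing the data. Of the 20 least variable genes 1 was kept with scaling to each library's own total, 13 with a minimum of 20 RPKM, and 6 to 11 without 1 library. Ranking the least variable genes by CV with counting error removed was not run, since 223 genes tie at 0. The median CV of 9.59% was 8.07% with a minimum of 5 RPKM and 8.91% to 9.74% without 1 library, lowest without replicate 1. Protein-coding genes alone gave 4.22 starts per Mb in domains, against 8.47. The promoter CpG ratio difference of -0.301 was -0.352 with 500 bases either side of the start. No paired analysis was possible because WT libraries alone were described and no groups of samples were compared; in and outside values were already taken within each library. The single domain list has no replicate, and genes under 50 reads are limited by counting.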
